A study of Mus musculus with 24 samples.

Results

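The genes described here encode the mitochondrial respiratory chain of mouse cells, with the carriers that feed it and the factors that set its transcription. They form a fixed list of 51 genes, with the subunits placed in complexes by gene name. It holds 24 genes of complex I, 4 of complex II, 6 of complex III and 10 of complex IV. A further 3 encode inner membrane carriers and 4 encode transcriptional regulators. Ndufa4 is thus counted under complex I throughout by its name alone, although its protein is found with complex IV. Members were found by the RefSeq accession of their probe, and a probe was found for 50 of the 51 (no probe was joined to Cox5b), against 26757 genes and unnamed transcripts tested in all. All 50 passed the filter on dim probes. In 49 of them the probe was well above the background on all 23 arrays used, and the exception was Ppargc1a, which was well above it on the 16 melanoma arrays and on none of the 7 leukemia arrays.

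Complex I oxidises NADH and complex II oxidises succinate, both pass electrons through ubiquinone to complex III, and complex IV hands them on from cytochrome c to oxygen. The protons pumped on the way drive ATP synthase, while the carriers of the Slc25 family bring phosphate into the mitochondrial matrix and exchange ADP for ATP across the inner membrane. Most subunits are encoded in the nucleus. The regulators Nrf1 and the coactivators Ppargc1a and Ppargc1b act on the nuclear genes, and Tfam packages the mitochondrial genome and helps start its transcription. In melanoma, high Ppargc1a is known from a subset of tumours that rely on oxidative phosphorylation, where it lies downstream of the melanocyte factor Mitf.

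RNA of 7 lines was measured on 24 one-colour mouse arrays, 8 on each of 3 slides. The melanoma lines derive from B16-F1 cells that express GFP. They were the parental B16-M (3 arrays), the dormant B16-D (4 arrays, 3 of them used), which was isolated from syngeneic mice vaccinated with irradiated cells overexpressing GM-CSF, and B16-D-733 (4), B16-D-735 (3) and B16-D-739 (3), which carry the name of B16-D with a further number. Titles of 2 B16-D-733 arrays, on the same slide, repeat replicate number 1 (called 1 and 1b here), so that they may share a sample; without either of them B16-D-733 had 0 members called against B16-M or B16-D. The methods of the study describe dormant cells of a second generation from a brain site, and the labels do not say which of the numbered lines is which. The leukemia lines were M0-p20 (4 arrays) and J365-p20 (3), taken here as the parental DA1-3b myeloid leukemia and as its late dormant cells from mice vaccinated with irradiated cells overexpressing interleukin-12, although the titles do not name DA1-3b. All cells had been amplified in vitro after isolation, and no treatment was applied. Captions of the study state that each experiment was repeated 3 times, without saying whether from separate cultures. Nothing ties the arrays of a line to separate cultures, so that p-values measure the spread between these arrays, which may be technical.

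The share of spots well above the background was 46.0% to 55.8% on the arrays used. B16-D replicate 2 stood apart with 90.3% and was left out. The melanocytic markers Tyr, Tyrp1, Dct, Mitf, Pmel, Mlana and Sox10 were above the background on all arrays of the melanoma lines. Of 6 haematopoietic markers, Itgam and Il3ra were so too, whereas Ptprc and Cd33 were on none of these arrays. Tyr, Mitf and Sox10 were above the background on every leukemia array as well, so that the lines differ by level. The summed level of the 7 melanocytic markers was 0.57 to 1.36 in M0-p20 and 1.48 to 2.69 in J365-p20, beside 10.51 to 10.63 in B16-M. On every leukemia array 5 of the 6 haematopoietic markers were above the background, and Cd33 was on none. Levels are given as the log2 signal minus the 75th percentile of the array, so that a difference of 1 is a 2-fold change. Differences come from a single limma fit of the 23 arrays with line and slide as terms, and a member is called where its Benjamini-Hochberg adjusted p, taken over the 26757 genes, is under 0.05. A change of RNA per cell cannot be told apart from a change in the mixture of cells in a culture.

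The promoters below are those of the members called higher in B16-D-735 against both B16-M and B16-D, the result that the following sections turn on, as far as the table of RefSeq promoters holds them (it has no entry for Uqcrc2 or Cox4i1). Promoters of Sdhd and Uqcrc1, which were not called in B16-D-735, are shown beside them for their motifs. Each runs from 250 bases before to 50 bases after the start of the gene. Capitals mark matches, on either strand, to the core of the NRF-1 site (GCGCANGCG), of the ETS site (CCGGAAG) or of the site of estrogen-related receptors (TNAAGGTCA). Nrf1 binds the first, GABPA of the ETS family the second and Esrra, a partner of Ppargc1a, the third.
Ppargc1a (GRCm38.p6, chr5:51567676-51567975, minus strand): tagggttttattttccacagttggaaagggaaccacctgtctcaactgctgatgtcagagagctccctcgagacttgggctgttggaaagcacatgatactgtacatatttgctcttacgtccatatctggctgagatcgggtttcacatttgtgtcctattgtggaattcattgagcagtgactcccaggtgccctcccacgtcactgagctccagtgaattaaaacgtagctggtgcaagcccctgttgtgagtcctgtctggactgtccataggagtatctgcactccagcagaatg
Ndufa4 (GRCm38.p6, chr6:11907401-11907700, minus strand): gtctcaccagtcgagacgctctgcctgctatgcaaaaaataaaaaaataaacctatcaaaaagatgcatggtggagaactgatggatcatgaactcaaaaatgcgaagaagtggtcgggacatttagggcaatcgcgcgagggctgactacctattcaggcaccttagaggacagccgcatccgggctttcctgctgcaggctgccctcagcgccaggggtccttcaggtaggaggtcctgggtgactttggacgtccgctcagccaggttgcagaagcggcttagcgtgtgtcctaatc
Ndufb6 (GRCm38.p6, chr4:40279372-40279671, minus strand): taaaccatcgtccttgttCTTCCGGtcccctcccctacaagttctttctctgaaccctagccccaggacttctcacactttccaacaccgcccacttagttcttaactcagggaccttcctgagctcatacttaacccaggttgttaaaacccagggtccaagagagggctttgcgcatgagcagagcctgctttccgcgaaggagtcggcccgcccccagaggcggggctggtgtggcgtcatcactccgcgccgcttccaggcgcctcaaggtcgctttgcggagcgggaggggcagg
Cox6b1 (GRCm38.p6, chr7:30626065-30626364, minus strand): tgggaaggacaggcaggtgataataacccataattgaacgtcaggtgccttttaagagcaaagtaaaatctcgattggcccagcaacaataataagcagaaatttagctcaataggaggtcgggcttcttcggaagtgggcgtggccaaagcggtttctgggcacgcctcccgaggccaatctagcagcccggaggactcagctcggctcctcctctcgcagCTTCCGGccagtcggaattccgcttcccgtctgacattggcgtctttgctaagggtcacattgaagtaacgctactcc
Sdhd (GRCm38.p6, chr9:50603800-50604099, minus strand): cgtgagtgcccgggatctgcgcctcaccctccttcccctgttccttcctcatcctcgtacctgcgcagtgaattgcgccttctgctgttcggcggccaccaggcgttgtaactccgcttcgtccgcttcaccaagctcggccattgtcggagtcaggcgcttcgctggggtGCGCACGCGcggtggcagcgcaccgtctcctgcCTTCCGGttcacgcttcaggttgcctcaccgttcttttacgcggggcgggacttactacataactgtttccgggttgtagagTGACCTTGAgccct
Uqcrc1 (GRCm38.p6, chr9:108936398-108936697, plus strand): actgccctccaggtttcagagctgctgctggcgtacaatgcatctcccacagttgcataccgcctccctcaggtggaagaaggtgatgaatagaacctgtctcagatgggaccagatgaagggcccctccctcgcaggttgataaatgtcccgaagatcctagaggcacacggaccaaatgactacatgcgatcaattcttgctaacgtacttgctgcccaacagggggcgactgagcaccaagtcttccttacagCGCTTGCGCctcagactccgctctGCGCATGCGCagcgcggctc

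Of the 51 members, 39 had a promoter in the table, with 41 windows. The NRF-1 core was in 11 of the 41 windows (26.8%) and in 6.25% of all 32851 windows, and the ETS core was in 12 of 41 (29.3%) and in 8.86% of all. The core of the estrogen-related receptor site was in 1 of 41 (2.44%), that of Sdhd, and in 1.28% of all windows. Ndufb6 and Cox6b1 held 1 ETS core each, Ppargc1a and Ndufa4 held none of the motifs, Sdhd held all 3 kinds and Uqcrc1 held 3 matches to the NRF-1 core, 2 of which overlap on opposite strands. Among the 12 windows of members called higher in B16-D-735 against B16-M or B16-D, 4 held the ETS core and 0 the NRF-1 core. A match is a string of letters in this window and was not tested as a site.

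The first comparison asks whether the respiratory chain differed between dormant and parental melanoma cells. Between B16-D and B16-M none of the 50 members was called by limma, in a comparison that called 3.54% of all genes (2 members had an unadjusted p under 0.05). The median difference of the members was 0.02 on the log2 scale, beside -0.01 over all genes tested, and single members lay between -0.23 (Ndufs7, a core subunit of complex I) and 0.61 (Ppargc1a). B16-D-733 and B16-D-739 against B16-M likewise had 0 members called, where limma called 5.52% and 3.92% of all genes, and 4 and 7 members had an unadjusted p under 0.05. The members' medians were 0.09 and 0.10. With quantile normalization these medians, and that of B16-D, lay at -0.04, -0.02 and -0.07, so that their direction depends on the scaling. In B16-D-733 and B16-D-739 the member nearest to the threshold was Uqcrc1, a core subunit of complex III, with differences of 0.39 (adjusted p = 0.0504 by limma) and 0.42 (adjusted p = 0.0554). Uqcrc1 passed in both where the filter asked each array of some line to be above the background.

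B16-D-735 differed from this. Against B16-M, 11 of the 50 members were called and all 11 were higher, in a comparison that called 5.54% of all genes. They were 5 of the 24 genes listed under complex I (Ndufa4, Ndufa9, Ndufb6, Ndufs1, Ndufv1), Sdhc of complex II and Uqcrc2 of complex III. The others were 3 of 9 measured genes listed under complex IV (Cox4i1, Cox6b1, Cox8a) and the regulator Ppargc1a. The differences of the 10 subunits lay between 0.39 and 0.58, thus between 1.31-fold and 1.49-fold, with standard errors of 0.10 to 0.15. Of all 50 members, 48 lay above 0, whereas 47.5% of all genes tested did, and the median of the members was 0.29 beside -0.02 for all genes. The size of this median depends on the scaling. With quantile normalization it was 0.20 beside -0.01 for all genes, with 47 members above 0 and 12 called. On 28 of the 50 members every array of B16-D-735 was above every array of B16-M, which held for 10.8% of all genes.

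Against B16-D the picture was similar, though B16-D-735 arrays serve in both comparisons. Limma called 11 members, all higher, where it called 7.76% of all genes. These were Ndufa1, Ndufa4, Ndufb6, Ndufb7 and Ndufs7, listed under complex I, Uqcrc2 of complex III, Cox4i1, Cox6b1, Cox7a2 and Cox7b of complex IV, and Ppargc1a. Their differences, Ppargc1a aside, lay between 0.38 and 0.60. The median of the members was 0.26 beside -0.01 for all genes, 45 of 50 lay above 0, and on 18 of 50 the arrays were apart with B16-D-735 higher, beside 8.69% of all genes. In each of the 2 comparisons 11 members were called, and 6 of them were called in both, namely Ndufa4, Ndufb6, Uqcrc2, Cox4i1, Cox6b1 and Ppargc1a.

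**Figure D1:**
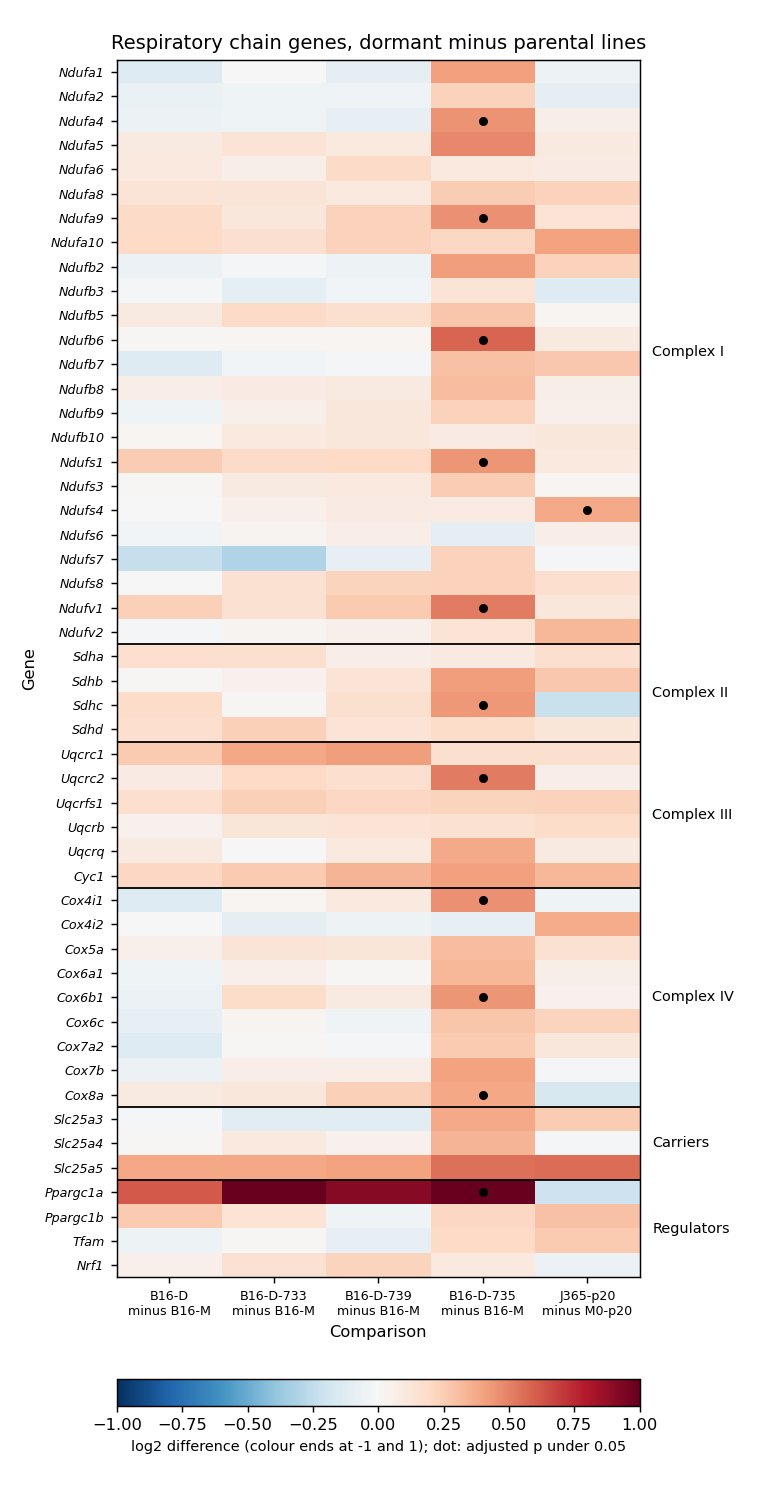
Log2 difference (colour) of the 50 measured respiratory chain genes (rows, by complex) between each dormant line and the parental line of its model (columns); dots mark adjusted p under 0.05 by limma. The column of B16-D-735 holds 11 dots, that of J365-p20 holds 1 at Ndufs4, and the other 3 columns hold none; the colour ends at 1, which Ppargc1a exceeds in B16-D-733 (1.06) and B16-D-735 (3.37), and its cell for J365-p20 rests on levels not above the background.

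The member with the largest difference was Ppargc1a, the coactivator that drives transcription of respiratory genes. Its level on the 3 arrays of B16-D-735 was 3.52, 3.33 and 3.19. On the 3 arrays of B16-M it was 0.72, -0.31 and -0.46, on those of B16-D 1.49, 0.32 and -0.02, on those of B16-D-739 1.47, 0.50 and 0.71, and on the 4 of B16-D-733 1.77, 0.73, 0.78 and 0.89. The lowest array of B16-D-735 was above the highest of the other melanoma lines, whereas those lines overlapped one another. In every melanoma line, B16-M among them, the highest array was replicate 0, the first value given here. Arrays of B16-D, B16-D-733 and B16-D-739 were each above the B16-M array of the same replicate number, where there was one. The fitted difference to B16-M was 3.37 ± 0.39 (SE), or 10.3-fold (adjusted p = 2.86e-05 by limma), and that to B16-D was 2.76 ± 0.40, or 6.76-fold (adjusted p = 0.000274). Both differences passed the threshold under every alternative that was run, with that to B16-D at 1.92 with a term for dated titles. The second probe of Ppargc1a gave 3.47 and 2.78. In B16-D, B16-D-733 and B16-D-739 the differences to B16-M were 0.61, 1.06 and 0.91 and did not pass (adjusted p = 0.523, 0.115 and 0.271 by limma). With the replicate number as a block, that of B16-D-733 passed (1.08, adjusted p = 0.0127 by limma). With a term for dated titles each of them passed, at 1.45, 2.02 and 0.91 (adjusted p = 0.0138, 0.000782 and 0.0482 by limma).

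Among the subunits, Ndufa4, a small protein listed under complex I by its name and found with complex IV, had the tightest levels in B16-D-735, 6.53, 6.56 and 6.52, above the 6.20, 5.90 and 6.16 of B16-M and the 6.22, 5.91 and 6.02 of B16-D. It differed from B16-M by 0.45 ± 0.11 (adjusted p = 0.0218 by limma) and from B16-D by 0.51 ± 0.11 (adjusted p = 0.00863). Ndufb6, an accessory subunit of the membrane arm of complex I, stood at 4.98, 4.89 and 4.87 in B16-D-735, at 4.44, 4.12 and 4.44 in B16-M and at 4.74, 4.19 and 4.21 in B16-D. One B16-D array stood well above the other two, yet none reached those of B16-D-735, and the differences were 0.58 ± 0.15 and 0.57 ± 0.16 (adjusted p = 0.0331 and 0.0336 by limma). Uqcrc2, a core subunit of complex III, stood at 5.56, 5.55 and 5.34 in B16-D-735, beside 5.04, 4.82 and 5.01 in B16-M and 5.18, 4.88 and 5.06 in B16-D. It differed by 0.52 ± 0.11 from B16-M (adjusted p = 0.00758 by limma) and by 0.45 ± 0.11 from B16-D (adjusted p = 0.0202).

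Cox4i1 is the common form of subunit 4 of complex IV, and Cox4i2 is the form known from lung and from low oxygen. Cox4i1 stood at 7.13, 7.37 and 7.18 in B16-D-735, at 6.64, 6.58 and 7.06 in B16-M and at 7.01, 6.64 and 6.63 in B16-D. The 3 arrays of B16-D-735 were above all 6 others, and the differences were 0.46 ± 0.12 (adjusted p = 0.0279 by limma) and 0.60 ± 0.12 (adjusted p = 0.00496). Cox4i2 stood at -0.38, -1.52 and -0.64 in B16-D-735 and at -0.39, -0.43 and -1.48 in B16-M, so that the groups overlapped, and the difference was -0.08 ± 0.12 (adjusted p = 0.818 by limma). Cox6b1, another nuclear subunit of complex IV, stood at 3.95, 4.07 and 4.02 in B16-D-735, at 3.53, 3.39 and 3.80 in B16-M and at 3.80, 3.74 and 3.41 in B16-D. It differed by 0.44 ± 0.12 from B16-M (adjusted p = 0.0387 by limma) and by 0.50 ± 0.12 from B16-D (adjusted p = 0.0175). One array of B16-D-733, at 3.98, lay among those of B16-D-735.

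The other members called against B16-M alone were Ndufa9 (0.46 ± 0.10, adjusted p = 0.00731 by limma), an accessory subunit that steadies the junction of the arms of complex I, the NADH-binding Ndufv1 (0.52 ± 0.12, adjusted p = 0.0122), the iron-sulphur subunit Ndufs1 (0.44 ± 0.12, adjusted p = 0.0337), the membrane anchor Sdhc (0.43 ± 0.12, adjusted p = 0.0384) and Cox8a (0.39 ± 0.10, adjusted p = 0.0348). In all 5 the arrays of B16-D-735 were above those of B16-M. Ndufv1 was at 5.50, 5.69 and 5.60 in B16-D-735 and at 5.15, 4.95 and 5.14 in B16-M. Those called against B16-D alone were Ndufa1 (0.54 ± 0.13, adjusted p = 0.0157), Ndufs7 (0.46 ± 0.13, adjusted p = 0.0345), Ndufb7 (0.43 ± 0.12, adjusted p = 0.0444), Cox7a2 (0.38 ± 0.11, adjusted p = 0.0437) and Cox7b (0.45 ± 0.13, adjusted p = 0.0452). The arrays of the lines overlapped in Ndufs7 and Ndufb7.

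The carriers had differences of 0.34 (Slc25a4), 0.38 (Slc25a3) and 0.55 (Slc25a5) to B16-M, and none passed. Slc25a4 and Slc25a5 exchange ADP and ATP, Slc25a4 mainly in muscle and heart. On the 3 arrays of B16-D-735 Slc25a4 was at 8.09, 8.09 and 7.84, beside 7.63, 7.56 and 7.81 in B16-M (adjusted p = 0.0750 by limma). Slc25a5 was at 6.31, 5.81 and 5.88, beside 5.77, 5.33 and 5.25 (adjusted p = 0.0928). In both genes the arrays of B16-D-735 were above those of B16-M. For Slc25a5 this was not particular to B16-D-735. Its level was 5.88, 5.63 and 5.89 in B16-D, 5.68 to 5.98 in B16-D-733 and 5.66 to 6.11 in B16-D-739, which overlaps B16-D-735.

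The other regulators gave smaller values than Ppargc1a. Ppargc1b, its close relative, was at 1.22, 1.70 and 1.31 in B16-D-735 and at 1.25, 1.21 and 1.14 in B16-M, with a difference of 0.21 ± 0.19 (adjusted p = 0.646 by limma). Tfam was at 2.07, 2.28 and 1.82 in B16-D-735 and at 1.87, 1.75 and 1.95 in B16-M, and its difference was 0.20 ± 0.13 (adjusted p = 0.495). Nrf1 was at 1.59, 1.64 and 1.68 against 1.49, 1.67 and 1.46, and its difference was 0.10 ± 0.15 (adjusted p = 0.816). All 3 overlapped between the lines.

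**Figure D2:**
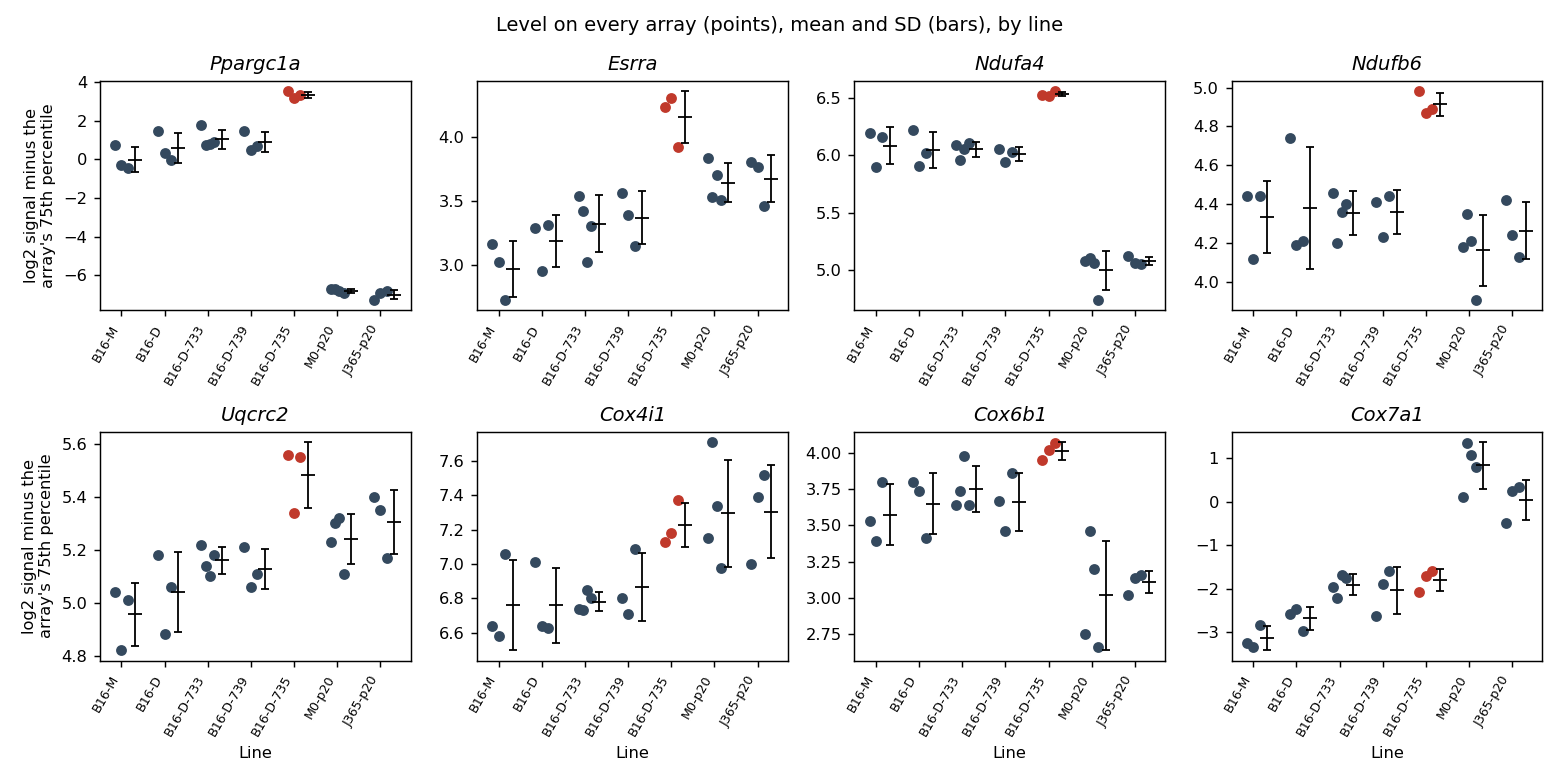
Level of 8 genes on every array (points; log2 signal minus the 75th percentile of the array, vertical axis) by line (horizontal axis), with mean and SD of each line beside the points and B16-D-735 in red; B16-D replicate 2 is left out, and each panel has its own scale. In Ppargc1a the 3 points of B16-D-735 lie between 3.19 and 3.52 and all other melanoma arrays at 1.77 or below, while the leukemia arrays are not above the background.

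Slides and replicate numbers were checked beside these values. Within slides 1, 2 and 3, the single array of B16-D-735 differed from that of B16-M by 3.79, 3.84 and 2.47 for Ppargc1a. The median difference of the members was 0.22, 0.51 and 0.18 on these slides, with 46, 49 and 41 of the 50 above 0, while the median over all genes was -0.05, -0.01 and 0.01. Against B16-D, the members' median was 0.23 on slide 1 and 0.19 on slide 3. The number of members called rests on few arrays. Against B16-M it was 7, 2 and 3 without B16-M replicate 0, 1 or 2, and 4, 3 and 6 without B16-D-735 replicate 0, 1 or 2. Without a term for slide it was 5 against B16-M and 3 against B16-D, and with a term for the B16-D and B16-D-733 arrays whose titles carry a date it was 13 and 1, the last being Ppargc1a.

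**Figure D3:**
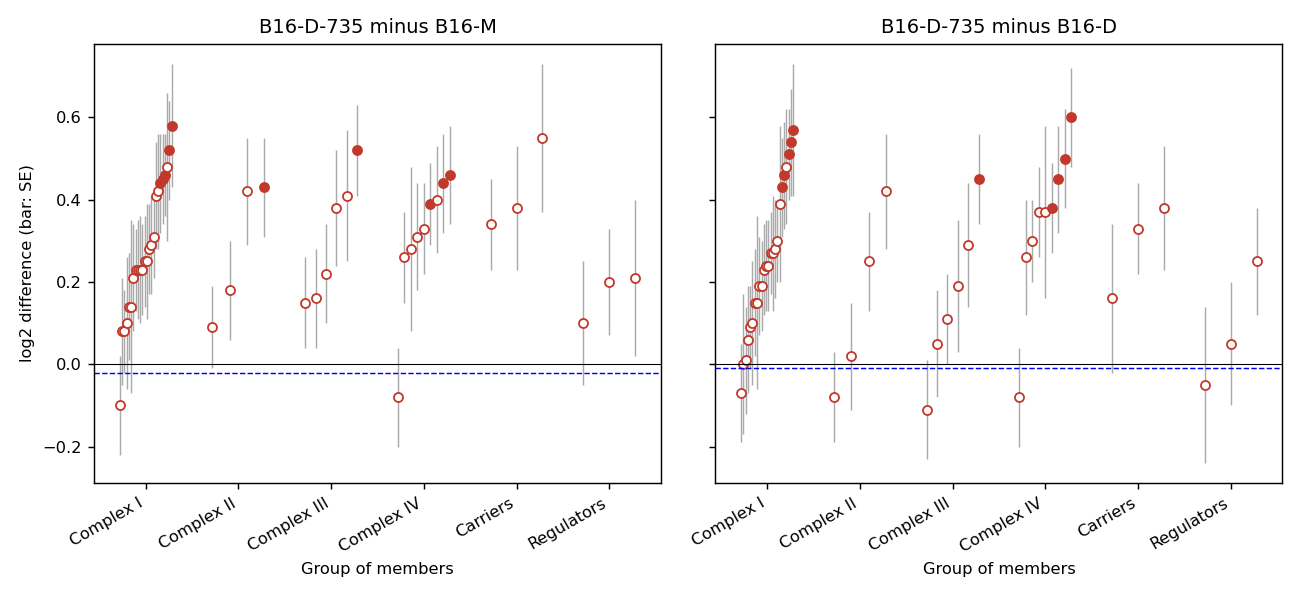
Log2 difference (points, vertical axis, bars: SE) of the members, by complex, carriers and regulators (horizontal axis), for B16-D-735 minus B16-M (left) and minus B16-D (right); filled points have adjusted p under 0.05 by limma, the dashed line is the median of all genes tested, and Ppargc1a (3.37 and 2.76) lies beyond the axis and is not drawn. Most points lie above the dashed line, with medians of 0.25 and 0.24 in complex I and 0.33 and 0.37 in complex IV.

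By complex, the medians of B16-D-735 against B16-M were 0.25 in complex I, 0.30 in complex II, 0.30 in complex III, 0.33 in complex IV and 0.38 in the carriers. Against B16-D they were 0.24, 0.13, 0.15, 0.37 and 0.33. In both comparisons complex II and complex III had at most 1 member called. Subunits at the low end against B16-M were Ndufs6 (-0.10) and Cox4i2 (-0.08), the only members below 0.

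B16-D-735 was then set against the mean of B16-D-733 and B16-D-739, a comparison chosen after its values were seen. Here 12 of 50 members were called, all higher, in a comparison that called 12.1% of all genes. They were Ndufa1, Ndufa4, Ndufa9, Ndufb2, Ndufb6, Ndufs7, Ndufv1, Sdhc, Uqcrc2, Cox4i1, Slc25a3 and Ppargc1a, and the last differed by 2.38 ± 0.33 (adjusted p = 0.000131 by limma). Without B16-D-735 replicate 0, 2 members were called, Ndufa4 and Ppargc1a. In the direct comparisons with B16-D, where limma called 0.486% of all genes for B16-D-733 and 0.385% for B16-D-739, 0 members were called in either, and 0 had an unadjusted p under 0.05.

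Other mitochondrial genes, taken from lists outside the 51 members, were read in the same fit, and their counts stand beside the 5.54% of all genes called and their medians beside the -0.02 of all genes. Of 16 genes of ATP synthase, which turns the proton gradient into ATP, 4 were called in B16-D-735 against B16-M, all higher, and the list median was 0.32. The largest was Atp5c1 of the central stalk, at 0.71 ± 0.17 (adjusted p = 0.0213 by limma). Of 16 genes of the citric acid cycle, which supplies NADH and succinate, 6 were called, all higher, with a list median of 0.44. Idh3a, a catalytic subunit of the NAD-dependent isocitrate dehydrogenase, was higher by 1.01 ± 0.20 (adjusted p = 0.00571). It differed from B16-M by 0.76 in B16-D-733 (adjusted p = 0.0257), by 0.74 in B16-D-739 (adjusted p = 0.0524) and by 0.64 in B16-D (adjusted p = 0.117), and B16-D-735 differed from the mean of B16-D-733 and B16-D-739 by 0.26 (adjusted p = 0.408). Among 13 further complex I subunits 2 were called (Ndufc2 and Ndufa12), among 10 further genes of complexes III and IV and cytochrome c 3 (Cox7a1, Uqcr10 and Uqcrh), and among 39 assembly factors 1, Uqcc3, at 0.94 ± 0.13 (adjusted p = 0.000153). All of these were higher in B16-D-735. Against the mean of B16-D-733 and B16-D-739, where 12.1% of all genes were called, assembly factors went both ways. Uqcc3 was higher (0.38), while Acad9 (-0.42) and Foxred1 (-0.37) were lower. The called genes of ATP synthase, of the citric acid cycle and of the further subunits were all higher there. Uqcc3 was also called higher than in B16-M in B16-D-733 (0.56, adjusted p = 0.00827) and B16-D-739 (0.55, adjusted p = 0.0190), where the same B16-M arrays serve.

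Of 15 genes of mitochondrial DNA upkeep and of mitochondrial and nuclear transcription, 1 was called against B16-M, beside 5.54% of all genes. The list median was 0.04. The called gene was Esrra, the estrogen-related receptor alpha, which binds Ppargc1a as a coactivator on respiratory promoters. Its level in B16-D-735 was 4.23, 3.92 and 4.30, beside 3.16, 3.02 and 2.73 in B16-M and 3.29, 2.95 and 3.31 in B16-D. No array of another melanoma line was above 3.56. The differences were 1.18 ± 0.11 to B16-M (adjusted p = 3.48e-06 by limma) and 0.87 ± 0.12 to B16-D (adjusted p = 0.000125). In B16-D, B16-D-733 and B16-D-739 Esrra differed from B16-M by 0.31, 0.32 and 0.40, and none passed (adjusted p = 0.187, 0.0966 and 0.0608). Against B16-D, Polg2, the accessory subunit of the mitochondrial DNA polymerase, was lower in B16-D-735 (-0.57 ± 0.11, adjusted p = 0.00348). Against the mean of B16-D-733 and B16-D-739, Esrra was called higher (0.82), and Polg2 (-0.58), Mterf3 (-0.36) and Yy1 (-0.29) were called lower. That comparison called 12.1% of all genes.

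Against B16-D limma called 7.76% of all genes. The other lists gave 4 of 16 genes of ATP synthase and 2 of 16 of the citric acid cycle (Ogdh and Cs) there. They also gave 2 of 13 further complex I subunits, 3 of 10 further genes of complexes III and IV and 1 of 39 assembly factors. Each of these was called higher. Uqcrh, the hinge protein of complex III, was at 7.50 ± 0.20 (SD, n = 3) in B16-D-735 and at 6.94 ± 0.04 (SD, n = 3) in B16-D. It differed by 0.65 ± 0.09 from B16-D (adjusted p = 0.000255 by limma) and by 0.51 ± 0.09 from B16-M (adjusted p = 0.00235).

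Cox7a1, the form of a complex IV subunit known from heart and skeletal muscle, was higher in the numbered lines than in B16-M. In B16-M it was at -3.25, -3.33 and -2.82, and in B16-D at -2.57, -2.47 and -2.97. In B16-D-733 it was at -1.95, -2.22, -1.68 and -1.76, in B16-D-735 at -2.08, -1.59 and -1.71, and in B16-D-739 at -2.63, -1.88 and -1.59. It was higher than in B16-M by 1.25 ± 0.22, 1.34 ± 0.23 and 1.10 ± 0.23 in the 3 numbered lines (adjusted p = 0.00187, 0.00177 and 0.0104 by limma), and these comparisons share the B16-M arrays. In J365-p20 it was lower than in M0-p20, with a difference of -0.86 ± 0.22 (adjusted p = 0.0396). The difference between the dormancy changes of B16-D and J365-p20 was 1.13 ± 0.32 and did not pass (adjusted p = 0.0741).

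Markers of other cell types were read on the same arrays. The 7 melanocytic markers had a summed level of 10.58 to 10.69 in B16-D-735 and of 10.51 to 10.63 in B16-M, and none of the 7 was called between these lines. Of 4 fibroblast markers, 3 were above the background on every array of B16-D-735 (Dcn, Pdgfrb and Col1a1) and 0 on every array of B16-M, and Col3a1 was on none. The summed level of the 4 was -1.65 to -0.53 in B16-D-735, -4.20 to -4.04 in B16-M, -3.49 to -2.47 in B16-D, -2.52 to -1.32 in B16-D-733 and -2.83 to -2.62 in B16-D-739. Dcn, which encodes the matrix proteoglycan decorin, was above the background on the 3 arrays of B16-D-735 and on none of the other melanoma arrays, whereas Pdgfrb was so in all 4 dormant melanoma lines. In B16-D-735 against B16-M, Dcn (4.96, adjusted p = 1.87e-05 by limma) and Pdgfrb (3.52, adjusted p = 7.83e-08) were called higher. Col1a1 (0.95, adjusted p = 0.386) was not. Pdgfrb was called in the other dormant melanoma lines too (3.26 to 4.26), where Dcn was not. Both genes were at the background in B16-M, on which these differences rest. The part of these genes in the result was not tested. Of 6 haematopoietic markers 3 were above the background on every array of B16-D-735 and of B16-M, and Ptprc, Spi1 and Cd33 were on no array of B16-D-735. One of the list, Il3ra, was higher than in B16-M in B16-D-735 (1.47, adjusted p = 0.000253 by limma) and in the other dormant melanoma lines (0.86 to 1.12). Endothelial, glial and neuronal, and T and B cell markers gave 0 calls between B16-D-735 and B16-M (1 of them had an unadjusted p under 0.05). Cdh5, Rbfox3 and P2ry12 did not pass the filter on dim probes and were not tested. Pecam1, Gfap, Mbp and Cd3e were above the background on every array of both lines, so that the lack of calls does not mean absence.

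In leukemia, limma called 1 of 50 members between J365-p20 and M0-p20, where it called 3.47% of all genes. This was Ndufs4, an accessory subunit of the NADH-oxidising arm of complex I. It was at 4.67, 4.48 and 4.67 in J365-p20 and at 4.08, 4.5, 4.21 and 4.0 in M0-p20, so that M0-p20 replicate 1 lay among the dormant arrays. The difference was 0.38 ± 0.09 (adjusted p = 0.0343 by limma), and the call was lost without M0-p20 replicate 2 or 3 and without J365-p20 replicate 0 or 1. Without M0-p20 replicate 1, 3 members were called (Ndufa10, Ndufs4 and Slc25a5). The median of the members was 0.10, beside -0.03 over all genes, and 39 of 50 lay above 0.

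The carrier Slc25a5 had the largest difference of the members, 0.56 ± 0.17 (adjusted p = 0.0902 by limma), at 5.21, 5.0 and 4.70 in J365-p20 and 4.04, 4.64, 4.63 and 4.36 in M0-p20. Cox4i2 differed by 0.37 ± 0.11 (adjusted p = 0.0945), Cox4i1 by -0.04 and Slc25a4 by -0.02. Tfam and Ppargc1b differed by 0.26 and 0.29 and did not pass. Ppargc1a was not well above the background in either line, so that no fold can be given. Of the other lists, 2 of 39 assembly factors were called higher, Coa7 (0.81) and Surf1 (0.49), both of which serve complex IV, and none of the 16 genes of ATP synthase or the 16 of the citric acid cycle was called (1 and 3 had an unadjusted p under 0.05).

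The difference between the dormancy changes of the 2 models, that of B16-D against B16-M minus that of J365-p20 against M0-p20, was tested as a term of the same fit. It called 0 of 50 members and 3.10% of all genes, and 4 members had an unadjusted p under 0.05. Ndufs4 had a value of -0.38 (adjusted p = 0.202 by limma). For Ppargc1a no value is given, since its probes were at the background in leukemia.

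The models themselves differed more than their dormant lines. Between the parental B16-M and M0-p20, limma called 31 of 50 members, 21 higher and 10 lower in the melanoma line, where it called 64.0% of all genes. The share of members called was thus close to that of all genes. The median of the members was 0.23 beside -0.17 for all genes, and members of both directions stood in every complex but complex II. That of all genes was -0.11 with quantile normalization and -0.18 with normexp. Within complex I, 10 subunits were higher and 5 lower in B16-M, and within complex IV 3 were higher and 3 lower.

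Complex I held the widest spread. Ndufa5 and Ndufb2, accessory subunits of complex I, were higher in B16-M by 1.48 ± 0.17 and 1.47 ± 0.13, or 2.79-fold and 2.77-fold (adjusted p = 8.50e-07 and 3.41e-08 by limma). Ndufa6, which lies near the base of the complex, and Ndufv1, the flavoprotein that binds NADH, were lower, with differences of -1.13 ± 0.15 and -1.10 ± 0.11 (adjusted p = 5.90e-06 and 1.18e-07). In all 4 genes the arrays of the lines did not overlap. Ndufb10 and Ndufa4 were higher by 1.14 and 1.08. The iron-sulphur subunit Sdhb of complex II was higher by 1.32 ± 0.12 (adjusted p = 6.67e-08), whereas Sdha, Sdhc and Sdhd differed by 0.13 to 0.20 and were not called.

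In complex IV the lines split by subunit. Cox8a was lower in B16-M, with a difference of -1.15 ± 0.10 (adjusted p = 1.34e-08 by limma), and Cox7b was higher by 0.89 (adjusted p = 5.73e-06). Cox4i1 stood at 7.15, 7.71, 7.34 and 6.98 in M0-p20 and was lower in B16-M, with a difference of -0.58 ± 0.11 (adjusted p = 0.000205), but with quantile normalization the difference was -0.03 and the call was lost (adjusted p = 0.804). Cox4i2 stood at -0.10, -0.80, -0.06 and -0.11 in M0-p20 and was lower in B16-M, with a difference of -0.42 ± 0.11 (adjusted p = 0.00377), a call that was lost with no slide term (adjusted p = 0.282). Arrays of the lines overlapped in both forms of this subunit.

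The ADP/ATP carriers were higher in melanoma. Slc25a4 stood at 6.21, 6.56, 6.36 and 6.12 in M0-p20, below every array of B16-M, and differed by 1.34 ± 0.10 (adjusted p = 3.00e-09 by limma). Slc25a5 differed by 1.04 ± 0.17 (adjusted p = 4.10e-05), while the phosphate carrier Slc25a3 differed by 0.13 and was not called.

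Of the regulators, Ppargc1a was not well above the background on any array of M0-p20 and was at least 25.1-fold higher in B16-M, a bound set by the dimmest probes above the background on the leukemia arrays (adjusted p of the fit 3.21e-11 by limma). Its mean level was -0.02 in B16-M and -6.81 in M0-p20. Ppargc1b was higher in B16-M by 0.68 ± 0.18 (adjusted p = 0.00290) and stood at 1.01, 0.48, 0.27 and 0.32 in M0-p20. Tfam (-0.14) and Nrf1 (-0.08) were not called, and their second probes gave -0.12 for Tfam and -0.13 and 0.08 for the further measured probes of Nrf1. Esrra was lower in B16-M, with a difference of -0.65 ± 0.11 (adjusted p = 4.27e-05).

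**Figure D4:**
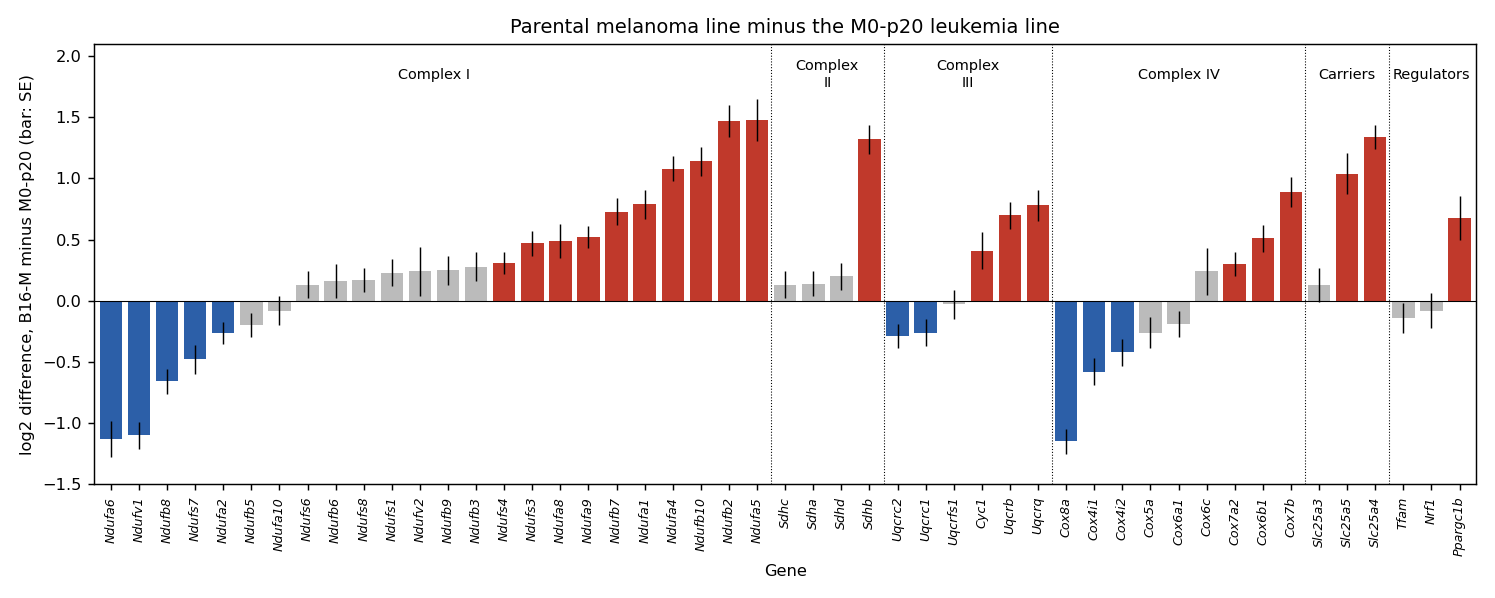
Log2 difference of each member between the parental melanoma line B16-M and the leukemia line M0-p20 (bars from 0, vertical axis, error bars: SE), by complex (horizontal axis); red bars were called higher and blue bars lower by limma, grey bars were not called, and Ppargc1a, which is not above the background in M0-p20, is not drawn. Higher and lower bars stand side by side in complexes I, III and IV, from -1.15 (Cox8a) to 1.48 (Ndufa5).

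Where a member had several probes, as 13 members had, the probes differed little in the comparisons of B16-D-735. For Ndufv1 they gave 0.52 and 0.45 against B16-M, for Sdhb 0.42 and 0.48 and for Slc25a3 0.38 and 0.57. Between B16-M and M0-p20 they differed more, with 1.32 and 1.97 for Sdhb and 1.34 and 1.96 for Slc25a4, in the same direction.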

How the data were processed

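RNA of 7 lines was measured on 24 Agilent mouse arrays of 1 colour. The authors scanned them with Agilent Feature Extraction 10.7.3.1 and deposited, per the file headers, an intensity for each of 59305 spots after background subtraction and spatial detrending, with no scaling between arrays. The methods of the study name no normalization and no test for arrays. Here outlier spots (2468 over all arrays) were left out, and no spot was saturated. Each array's 75th percentile was subtracted from its log2 intensities, spots of 1 probe were averaged, and the probe with the highest mean stood for its gene. Probes were joined to RefSeq symbols by accession. Genes with 3 or more arrays well above background were fitted with limma 3.58.1 in R 4.3.3, with line and slide as terms (14 residual and 2.15 prior degrees of freedom), two-sided. The fit was tested on simulated data. The number of arrays limits the precision: the median standard error of the members was 0.12 for B16-D-735 against B16-M, and the smallest difference called was 0.39. Alternatives were normexp on the median spot signals, quantile normalization, other filters and probes, terms for replicate number or dated titles, models fitted separately and leaving out each array.

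The members and lists were chosen with earlier results of these data known. Any member could be named, and always those past the threshold (the 10 with the largest difference where over 10 passed), the 4 regulators, both forms of Cox4 and the carriers Slc25a4 and Slc25a5, and for other lists up to 4 genes past the threshold. Genes singled out beyond that were named after their values were seen. Replicate numbers were checked by the correlation of residuals of same-numbered arrays, which was 0.59, 0.22 and 0.31 for B16-D-735 and B16-M, 0.39, 0.24 and 0.12 for B16-D-739 and B16-M, and 0.21, 0.30 and 0.40 for J365-p20 and M0-p20. These numbers were taken as pairs, but the main fit holds line and slide only, so its counts and p-values do not use the pairs. Among the comparisons not taken as pairs, the correlations were 0.58 and 0.29 for B16-D-735 and B16-D and 0.56 and 0.33 for B16-D and B16-M. They were 0.46, 0.16 and 0.06 for B16-D-733 and B16-M. These values overlap those of the comparisons that were taken as pairs. Promoter sequences are those of RefSeq on GRCm38.p6, while the file headers name mm9 for the array, and no other coordinates were used.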

Additional observations from a re-analysis of the deposited data

Results flagged for a closer look

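In the lines with 4 arrays, 1 array stood far from the other 3 in 9 of 100 sets of values (50 members in each of 2 lines), where chance gives about 1 in 20 for independent sets. The members share arrays and the values were not adjusted for slide, so the 9 cannot be set against that rate. B16-D-733 replicate 2 and M0-p20 replicate 1 were the only arrays of their lines on slide 1. The same held for B16-D-733 replicate 0 on slide 2 and M0-p20 replicate 2 on slide 3. For these, array and slide cannot be told apart. Cox4i2 was also lowest on slide 1 in B16-M (-1.48), B16-D-735 (-1.52) and B16-D-739 (-1.59). Replicates 1 and 1b of B16-D-733 may share a sample, which would leave 3 samples and no such test in that line. In B16-D-733, replicate 2 was high in Ndufa2 (5.68, the others 5.49 to 5.50), Ndufb9 (6.60, the others 6.32 to 6.33) and Ndufs1 (5.12, the others 4.83 to 4.87), and replicate 0 was high in Ppargc1a (1.77, the others 0.73 to 0.89). Replicate 0 was the highest array for Ppargc1a in the other melanoma lines as well. In M0-p20, replicate 3 was low in Ndufa4 (4.74, the others 5.06 to 5.10) and Cox6c (5.40, the others 6.32 to 6.45), replicate 1 was high in Cyc1 (5.49, the others 4.64 to 4.72) and low in Cox4i2 (-0.80, the others -0.11 to -0.06), and replicate 2 was high in Slc25a3 (5.61, the others 5.26 to 5.31).

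B16-D-735 differed from the mean of B16-D-733 and B16-D-739 in 12 members, by a test of the difference itself in limma, in a comparison chosen after its values were seen. Among genes listed under complex I these were Ndufa4 (0.51, adjusted p = 0.00171), Ndufb6 (0.55, adjusted p = 0.00901), Ndufa1 (0.45, adjusted p = 0.0108), Ndufs7 (0.42, adjusted p = 0.0155), Ndufb2 (0.46, adjusted p = 0.0184), Ndufa9 (0.29, adjusted p = 0.0255) and Ndufv1 (0.31, adjusted p = 0.0491). The others were Ppargc1a (2.38, adjusted p = 0.000131), Cox4i1 (0.40, adjusted p = 0.0149), Slc25a3 (0.48, adjusted p = 0.0199), Uqcrc2 (0.34, adjusted p = 0.0235) and Sdhc (0.35, adjusted p = 0.0321).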

How the results depend on the processing

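No difference of a named member that limma called changed direction under the alternatives that were run for it, whereas small differences that were not called (Slc25a4, Tfam and Nrf1 in B16-D against B16-M among them) did, and quantile normalization turned the sign of the small medians given for B16-D, B16-D-733 and B16-D-739. The number of members called moved most for B16-D-735. Against B16-M (11 called) it was 5 with no slide term, 7 with B16-D replicate 2 kept and 4 with no filter on dim probes, and 2 to 14 on leaving out single arrays. Against B16-D (11) it was 3, 18 and 5 under the same settings, 19 with quantile normalization, 1 (Ppargc1a) with a term for dated titles, and 3 to 16 on leaving out single arrays, with 4 or 3 without B16-D replicate 1 or 3 and 4, 5 and 5 without B16-D-735 replicate 0, 1 or 2. Against the mean of B16-D-733 and B16-D-739 (12) it was 5 with no slide term, 22 with quantile normalization, 20 with the models fitted separately, 4 with a term for dated titles, and 2 to 17 on leaving out single arrays. For B16-D against B16-M (0) it was 1 with quantile normalization (Ndufs7, -0.34) and 1 with a term for dated titles (Ppargc1a, 1.45). For B16-D-733 against B16-M (0) it was 1 with quantile normalization (Ndufs7, -0.41), 1 each with the filter on every array of a line and with the models fitted separately (Uqcrc1, 0.39), 1 with a term for dated titles (Ppargc1a, 2.02), and 0 to 1 on leaving out single arrays. For B16-D-739 against B16-M (0) it was 1 under the last 3 of these settings, and 0 to 1 on leaving out single arrays. The calls under these settings were Uqcrc1 (0.42) with the filter and with separate models, and Ppargc1a (0.91) with the term for dated titles. For J365-p20 against M0-p20 (1) it was 0 with no slide term, with no filter and with the models fitted separately, 3 with quantile normalization, 2 with the mean of all probes, and 0 to 3 on leaving out single arrays. The difference between the models (0) had 1 with a term for dated titles, which is Ppargc1a and is not read as a call, since its probe was at the background in leukemia. The cause of these changes was not tested.

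With the replicate number as a block, B16-D-733 against B16-M had 2 members called (Ppargc1a, 1.08, and Uqcrc1, 0.39) and B16-D-735 against B16-D had 6 in place of 11. In these comparisons the numbers were not taken as pairs, although the residual correlations of B16-D-735 and B16-D were 0.58 and 0.29. Where the numbers were taken as pairs, B16-D-735 against B16-M had 15 called in place of 11. B16-D-739 against B16-M had 0 and J365-p20 against M0-p20 had 1, and no call was lost there. The block thus moved the counts of B16-D-735 in both directions.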
